A study of Arabidopsis thaliana with 18 samples.

Results

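AT2G43590 and AT1G02360, which encode chitinases, and PDF1.4 (AT1G19610), which encodes a plant defensin, were followed in Arabidopsis thaliana seedlings before and after a survivable heat treatment. They are 3 of the 13286 genes that could be read from a probe set with 1 gene, among 22746 probe sets tested, and each is read from 1 probe set. The genes were chosen by their measured change in wild-type seedlings 52 h after heat, so that change is described below without a test. The groups were the bru1 mutant, untreated or 4 h or 52 h after acclimation, and the Columbia wild type (Col) in the same conditions, with 3 biological replicates in each of the 6 groups and 18 arrays in all. Acclimation was given to seedlings aged 4 d as 1 h at 37 °C, 1.5 h at 23 °C and 45 min at 44 °C, begun 6 h after dawn. The untreated controls belong to the 4 h harvest, so seedlings at 52 h were also older than their controls, and age and heat cannot be told apart at that time. The bru1 mutant carries a defect in BRU1, a nuclear protein of genome maintenance, and the series title links this gene to heat stress memory. Its allele is not named in the labels, and its transcript was not analysed here.

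Chitinases cut chitin, the polymer of fungal cell walls, and are among the pathogenesis-related proteins of plants. Those of glycoside hydrolase family 19, to which both genes belong, are typical of plants, while family 18 enzymes occur in most kinds of organisms. Defensins are small secreted proteins with many cysteines, several of which inhibit fungal growth, and PDF1.2 of the same family is a widely used marker of jasmonate and ethylene signalling.

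Values are log2 expression from Affymetrix ATH1 arrays as the authors deposited them, so a difference of 1 is a doubling. Group values are means ± SD with n = 3, and differences are log2 differences ± SE from limma, with p-values adjusted by the Benjamini-Hochberg method over all probe sets and a threshold of 0.05. Array medians lay between 6.49 and 6.55, and arrays of 1 group correlated with each other at 0.986 to 0.996 on average per array, with the lowest value in Col at 52 h. The level 4.39, the highest lower quartile of any array, serves here as a mark of dim probe sets. RNA came from seedlings in bulk, where fewer cells of a type and less RNA per cell cannot be told apart.

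In wild-type seedlings at 52 h, both chitinase transcripts were lower than in controls and that of the defensin was higher. AT2G43590 stood at 7.06 ± 0.38 at 52 h in Col, against 9.28 ± 0.36 in Col controls, a difference of -2.22 ± 0.25 that had rank 6 among the falls of all probe sets. AT1G02360 stood at 6.93 ± 0.20 against 8.79 ± 0.17 in Col controls, a difference of -1.86 ± 0.21 at rank 14 among the falls. PDF1.4 stood at 9.79 ± 0.91 against 5.18 ± 0.51 in Col controls, a difference of 4.61 ± 0.42, or 24.4-fold, at rank 10 among the rises. These are the values by which the genes were chosen. For comparison, 14.8% of all probe sets were called in this contrast, 6.93% as higher and 7.84% as lower.

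The bru1 arrays were not used in that choice, and on them all 3 transcripts moved in the same directions at 52 h. PDF1.4 rose and both chitinase transcripts fell against the untreated bru1 seedlings, where 7.24% of all probe sets were called, 3.05% as higher and 4.19% as lower. PDF1.4 was 2.99 ± 0.42 higher, or 7.97-fold (adjusted p = 1.9e-04, limma), at rank 14 among the rises. AT1G02360 was lower by a difference of -1.41 ± 0.21 (adjusted p = 4.1e-04) at rank 87 among the falls, and AT2G43590 by -1.19 ± 0.25 (adjusted p = 0.0061) at rank 150. For each of the 3 genes, every bru1 array at 52 h lay on one side of all 3 bru1 control arrays. The share of all probe sets separated in this way was not counted, so the separation is given as a description. The genes were chosen with earlier results of these data known, so their joint count carries no weight of its own.

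The level of AT2G43590 was high in both sets of untreated seedlings and lower in all 4 heat-treated groups. In bru1 its arrays read 9.28, 9.47 and 9.42 in the controls, 7.64, 7.83 and 7.35 at 4 h, and 7.60, 8.68 and 8.33 at 52 h. The 4 h arrays lay below every control array, and at 52 h replicate 1 remained at the 4 h level while replicates 2 and 3 lay above it. In Col its arrays read 8.97, 9.20 and 9.67 in the controls, 8.22, 7.76 and 8.40 at 4 h, and 7.25, 7.32 and 6.62 at 52 h. Here the 3 groups formed steps without overlap, with the lowest values at 52 h.

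At 4 h in bru1 AT2G43590 was 3.44-fold lower than in the bru1 controls, a difference of -1.78 ± 0.25 (adjusted p = 2.1e-05), in a comparison in which 19.5% of all probe sets were called lower. Between 4 h and 52 h in bru1 the difference was 0.60 ± 0.25 with a 95% confidence interval of 0.07 to 1.12 (adjusted p = 0.070), which does not pass the threshold, although 18.3% of all probe sets were called higher. Without bru1 52 h replicate 1 it was 0.90 (adjusted p = 0.0072), and without Col 52 h replicate 3, which alters only the shared spread, the adjusted p was 0.048. In Col the differences were -1.15 ± 0.25 for 4 h against controls and -1.07 ± 0.25 for 52 h against 4 h. Both share arrays with the contrast that chose the gene and are given without a test.

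AT1G02360 had its highest levels in untreated seedlings too, and its lowest in bru1 at 4 h. In bru1 the arrays read 8.40, 8.46 and 8.34 in the controls, 6.60, 6.38 and 6.47 at 4 h, and 6.94, 6.82 and 7.22 at 52 h. These 3 groups did not overlap, and the 52 h arrays lay between the others. In Col they read 8.69, 8.99 and 8.70 in the controls, 7.66, 6.95 and 8.21 at 4 h, and 6.81, 7.16 and 6.82 at 52 h. The Col arrays at 4 h were widely spread, with replicate 2 inside the range of the 52 h arrays.

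At 4 h in bru1 AT1G02360 was 3.78-fold lower than in bru1 controls, a difference of -1.92 ± 0.21 (adjusted p = 1.6e-06). From 4 h to 52 h in bru1 the difference was 0.51 ± 0.21 with a 95% confidence interval of 0.06 to 0.96 (adjusted p = 0.067), short of the threshold. The adjusted p was 0.010 without Col 4 h replicate 2 and 0.019 without Col 4 h replicate 3, which leave the difference as it is and lower the shared spread. In Col the differences were -1.18 ± 0.21 for 4 h against controls and -0.68 ± 0.21 for 52 h against 4 h, given without a test.

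PDF1.4 was near the dim end of the scale except at 52 h. In bru1 its arrays read 4.29, 4.65 and 4.60 in the controls, 4.47, 4.93 and 4.92 at 4 h, and 7.79, 8.31 and 6.42 at 52 h. The control and 4 h arrays overlapped, and replicate 3 at 52 h was the lowest of its group while still above every earlier bru1 array. In Col they read 4.82, 4.96 and 5.76 in the controls, 6.10, 5.60 and 5.64 at 4 h, and 9.61, 8.98 and 10.78 at 52 h. Every Col array at 52 h lay above every other array of the series, the bru1 arrays at 52 h included.

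At 4 h in bru1 PDF1.4 was 0.26 ± 0.42 above the bru1 controls, with a 95% confidence interval of -0.62 to 1.14 (adjusted p = 0.68), and so was not shown to change, in a comparison in which 19.9% of all probe sets were called higher. Between 4 h and 52 h in bru1 it rose by 2.73 ± 0.42, or 6.66-fold (adjusted p = 4.9e-05). In Col the differences were 0.60 ± 0.42 for 4 h against controls and 4.01 ± 0.42 for 52 h against 4 h, without a test. The mean of the bru1 controls was 4.51 ± 0.20, close to the mark of 4.39, and array values so near the dim end can understate a fold difference. Of the 3 genes, PDF1.4 was high at 52 h alone, while the chitinase transcripts were already lower than in controls at 4 h.

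**Figure D1:**
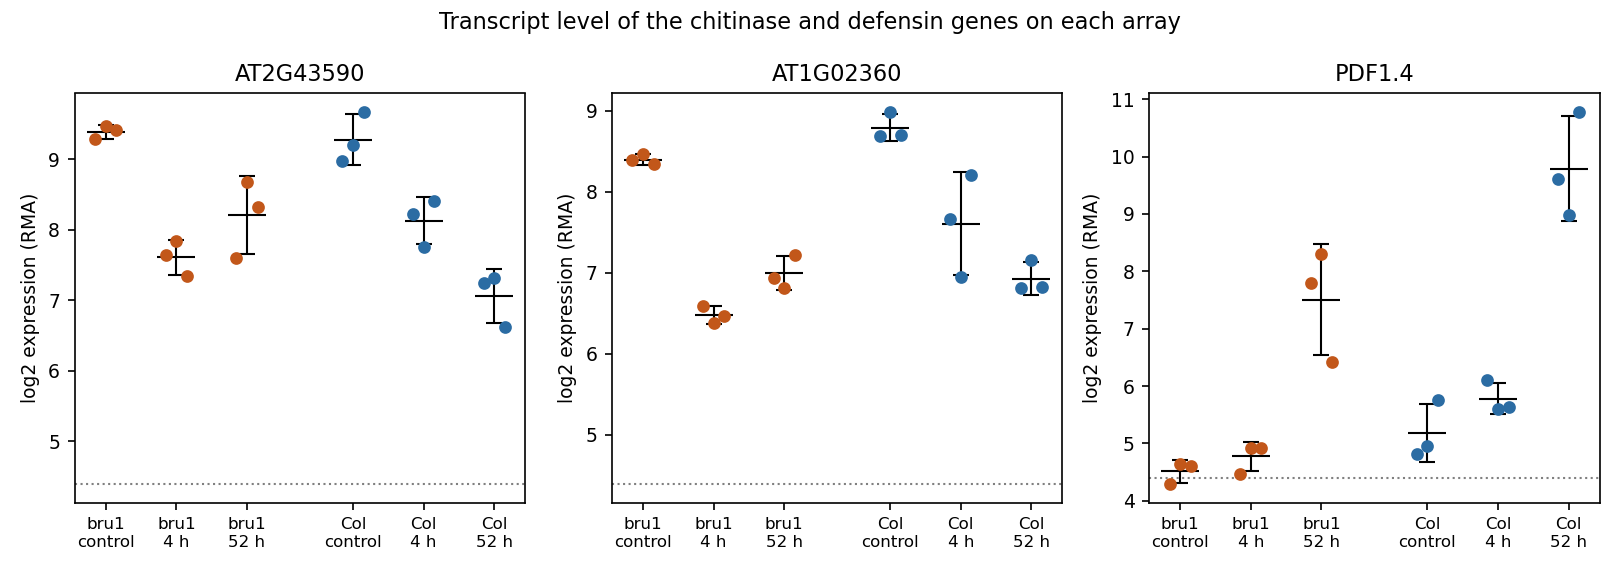
Each panel plots the log2 expression of 1 gene (vertical axis) on the 18 arrays in 6 groups (horizontal axis), with bru1 in orange and Col in blue. Points are arrays, horizontal dashes with bars are means ± SD (n = 3), and the dotted line is at 4.39. Both chitinase transcripts are highest in the controls, and PDF1.4 is highest at 52 h, where the Col arrays (8.98 to 10.78) lie above the bru1 arrays (6.42 to 8.31).

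Ordered by their means, the groups of AT2G43590 ran from bru1 controls (9.39 ± 0.10) and Col controls (9.28 ± 0.36), whose ranges overlapped, to bru1 at 52 h (8.20 ± 0.55), Col at 4 h (8.13 ± 0.33) and bru1 at 4 h (7.61 ± 0.24), each overlapping the next, and to Col at 52 h (7.06 ± 0.38), which lay apart. For AT1G02360 the order was Col controls (8.79 ± 0.17), bru1 controls (8.40 ± 0.06), Col at 4 h (7.61 ± 0.63), bru1 at 52 h (6.99 ± 0.21), Col at 52 h (6.93 ± 0.20) and bru1 at 4 h (6.48 ± 0.11). Of these neighbours, Col at 4 h overlapped bru1 at 52 h, which overlapped Col at 52 h, and the other neighbours did not overlap. For PDF1.4, Col at 52 h and bru1 at 52 h (7.51 ± 0.97) each lay apart from the next group, and Col at 4 h (5.78 ± 0.27), Col controls, bru1 at 4 h (4.77 ± 0.26) and bru1 controls formed a chain of overlapping ranges.

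The genotypes could be tested against each other at 4 h, where the rule used neither group. AT1G02360 was lower in bru1 than in Col at 4 h by a difference of -1.12 ± 0.21, or 2.18-fold (adjusted p = 0.0018), and 6.96% of all probe sets were called lower in that comparison. AT2G43590 differed by -0.52 ± 0.25 with a 95% confidence interval of -1.05 to 0.01 (adjusted p = 0.20). PDF1.4 differed by -1.01 ± 0.42 with an interval of -1.89 to -0.13 (adjusted p = 0.13), although its 3 bru1 arrays lay below all 3 Col arrays. With only the arrays of these 2 groups in the fit, the adjusted p of PDF1.4 was 0.0057.

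Other genotype differences share arrays with the choice of the genes and are given as values. At 52 h the difference of bru1 from Col was -2.28 ± 0.42 for PDF1.4, 1.14 ± 0.25 for AT2G43590 and 0.06 ± 0.21 for AT1G02360. In untreated seedlings the differences of bru1 from Col were 0.11 ± 0.25 for AT2G43590, -0.39 ± 0.21 for AT1G02360 and -0.67 ± 0.42 for PDF1.4. The change at 52 h against controls in bru1 minus that in Col was -1.62 ± 0.59 for PDF1.4, 1.03 ± 0.35 for AT2G43590 and 0.46 ± 0.30 for AT1G02360, all toward a smaller change in bru1. The change at 4 h in bru1 minus that in Col was -0.63 ± 0.35 for AT2G43590, -0.73 ± 0.30 for AT1G02360 and -0.34 ± 0.59 for PDF1.4. Over all probe sets, the difference at 52 h was called for 0.119%. The genes were chosen on the Col change, so the direction of these 52 h values is no sign of a genotype effect. Hybridisation runs are not named in the labels, so genotype and run cannot be told apart if the runs differed.

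The 2 root hair genes measured had lower means in the heat-treated groups, as both chitinase transcripts did, and signs of RNA quality differed among the groups in part. Of 6 root hair markers 2 were measured, the expansin genes EXPA7 and EXPA18, and their summed linear level lay at 222 to 303 in bru1 controls, 128 to 141 at 4 h and 142 to 155 at 52 h in bru1. In Col it lay at 180 to 210 in the controls, 65.8 to 111 at 4 h and 61.3 to 143 at 52 h. Against controls, limma called 2 of the 2 lower at 4 h in bru1 and at 4 h and 52 h in Col. At 52 h in bru1 it called 1 of the 2. The shares of all probe sets called lower were 19.5%, 18.2%, 7.84% and 4.19% in the same order. The array's probe set for 25S ribosomal RNA read 10.8 to 11.4 in bru1 controls, 13.2 to 13.3 at 4 h and 12.1 to 12.3 at 52 h, and 11.3 to 11.7, 12.4 to 13.2 and 12.2 to 12.5 in the same conditions in Col. The 3' minus 5' difference of the actin control, a sign of RNA degradation, read 2.96 to 3.08, 3.47 to 3.59 and 2.92 to 3.07 in bru1 controls, at 4 h and at 52 h, and 2.66 to 2.77, 3.13 to 3.42 and 2.87 to 3.42 in Col. For actin in bru1 the ranges at 52 h and in controls overlapped, while in Col both heat-treated ranges lay above that of the controls. The 25S ranges of heat-treated seedlings lay above those of controls in both genotypes. The 3' minus 5' difference for the GAPDH control read 0.58 to 0.77, 0.56 to 0.63 and 0.67 to 0.76 in bru1, where both heat-treated ranges overlapped that of the controls. In Col it read 0.352 to 0.435, 0.534 to 0.718 and 0.438 to 0.545, where both heat-treated ranges lay above that of the controls, narrowly at 52 h. The seed marker list had 1 of 10 genes measured (AT3G01570), which fell in Col at 4 h and at 52 h (-0.80 and -0.72) and differed from controls by 0.30 and 0.20 in bru1, neither past the threshold. The shoot meristem list had 1 of 5 (CLV3, dim in every group), while 0 of 12 green tissue and 0 of 6 vascular markers were read from a probe set with 1 gene. The part of root cells and RNA quality in the levels of the 3 genes was not tested.

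AT2G43590 lies on chromosome 2 in a run of 6 consecutive protein-coding genes of family 19, from CHI (AT2G43570) to AT2G43620, in the RefSeq annotation on TAIR10.1, which was used for gene order only. All 6 were measured, and they did not share a single course. AT2G43620, at the far end of the run, fell at 4 h in bru1 (-1.82 ± 0.27, adjusted p = 3.7e-05) and rose again from 4 h to 52 h by 2.31 ± 0.27 (adjusted p = 2.8e-06), ending 0.49 ± 0.27 from its controls (adjusted p = 0.35). AT2G43600 and AT2G43610 fell at 4 h in bru1 (-0.82 and -1.27) and were still lower at 52 h (-0.87 and -0.77, adjusted p = 0.015 and 0.025). The call of AT2G43600 at 52 h in bru1 ended without bru1 52 h replicate 1 or 2 (adjusted p = 0.085 and 0.052) or bru1 control replicate 1 or 3 (0.052 and 0.069). That of AT2G43610 ended without bru1 52 h replicate 1 or 2 (adjusted p = 0.17 and 0.065) or bru1 control replicate 1 or 2 (0.11 and 0.070). CHI differed in bru1 by -0.29 ± 0.20 at 4 h and -0.06 ± 0.20 at 52 h, neither past the threshold. In Col CHI differed by 0.39 at 4 h, not past the threshold, and fell from 4 h to 52 h (-0.55, adjusted p = 0.039). That call ended with the replicate block (adjusted p = 0.051) and without Col 4 h replicate 3 (0.25) or Col 52 h replicate 1 or 2 (0.14 and 0.15). AT2G43580 was dim in every group. Near-identical copies can share hybridisation on an array, and whether these probe sets do was not tested.

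**Figure D2:**
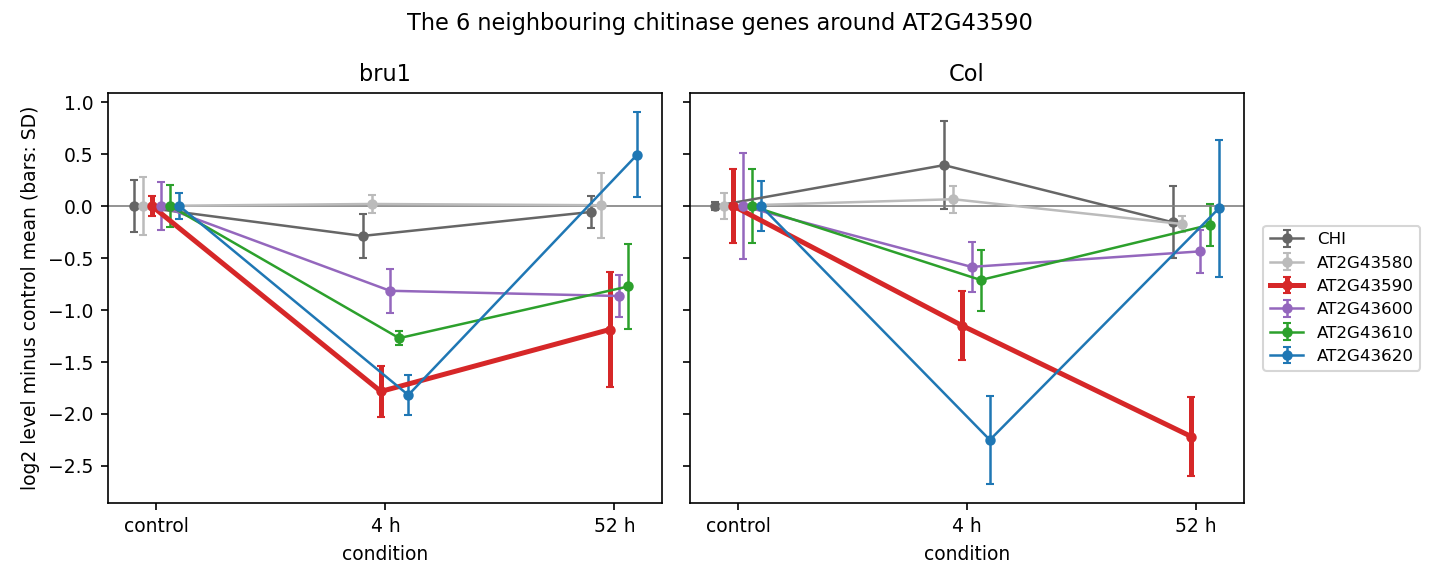
The log2 level of each of the 6 neighbouring genes minus its own control mean (vertical axis) is plotted against condition (horizontal axis) in bru1 (left) and Col (right), as means with SD bars over 3 arrays. AT2G43590, drawn with a thick line, stood 1.19 below its controls at 52 h in bru1 and 2.22 below in Col, while AT2G43620 had returned to within 0.49 of its controls in bru1 and 0.02 in Col.

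Across family 19, 10 of 14 listed genes were measured, and besides AT2G43590 and AT1G02360 there were 8, of which 2 were dim in every group. At 4 h, 5 of these 8 fell in bru1, where 19.5% of all probe sets were called lower, and 6 fell in Col (1 of them dim), where 18.2% were. Their median difference was -0.87 in bru1 and -0.65 in Col, against 0.01 and 0.00 over all probe sets. At 52 h, 3 of 8 were lower in bru1 (median -0.12) and 1 of 8 in Col (median -0.27), against medians of 0.01 and -0.02 over all probe sets, of which 4.19% in bru1 and 7.84% in Col were called lower. In limma 0 of the 8 rose in these 4 comparisons, also at an unadjusted p under 0.05. Of all probe sets, 19.9% in bru1 and 18.2% in Col were called higher at 4 h, and 3.05% and 6.93% at 52 h. At 52 h a count of 0 of 8 is near those shares. The count of 3 was 1 without bru1 control replicate 1, without bru1 52 h replicate 1 or without bru1 52 h replicate 2, and the count of 1 in Col was 3 without Col control replicate 1.

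Of the 8 genes of family 19 besides AT2G43590 and AT1G02360, AT4G01700 passed the test at 52 h in both genotypes, with -1.36 ± 0.26 in bru1 (adjusted p = 0.0027) and -1.23 ± 0.26 in Col (adjusted p = 0.0032). It had fallen by 4 h as well, with -1.54 ± 0.26 in bru1 and -1.61 ± 0.26 in Col (adjusted p = 1.2e-04 and 8.3e-05). From 4 h to 52 h in bru1 it was not shown to rise (0.18 ± 0.26, adjusted p = 0.64). AT1G02360 and AT2G43590 came closer to the threshold there (0.51 and 0.60, adjusted p = 0.067 and 0.070). AT3G47540 fell at 4 h (-0.93 in bru1, -1.23 in Col) and rose again by 52 h (0.75 and 0.86 above 4 h), where 14.9% of all probe sets were called higher in Col. The rise of AT3G47540 in bru1 did not pass without bru1 4 h replicate 2 (adjusted p = 0.063).

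Of family 18, 5 of 10 listed genes were measured and 2 were dim in every group. ChiC, a class V chitinase, fell at 4 h by a difference of -1.91 ± 0.23 in bru1 (adjusted p = 4.5e-06) and -1.46 ± 0.23 in Col (adjusted p = 8.3e-05). It rose from 4 h to 52 h in bru1 by 1.81 ± 0.23 (adjusted p = 8.5e-06), and at 52 h it was -0.10 ± 0.23 from its bru1 controls (adjusted p = 0.89) and -0.80 ± 0.23 from its Col controls (adjusted p = 0.027). The Col value of ChiC did not pass without Col control replicate 1 or 3 (adjusted p = 0.060 and 0.12) or Col 52 h replicate 1 or 3 (0.054 and 0.14). ChiC alone of the 5 was called lower at 4 h in bru1, where 19.5% of all probe sets were called lower. A count of 1 of 5 is near that share. For Col at 4 h, 18.2% of all probe sets were called higher and 18.2% lower. In Col at 4 h AT4G19820 fell as well (-0.75 ± 0.14, adjusted p = 4.2e-04), while AT4G19720 rose (0.63 ± 0.14, adjusted p = 0.0017) and so did the dim AT4G19740 (0.35 ± 0.13, adjusted p = 0.044), whose call was lost in 12 of 23 alternatives. At 52 h 0 of 5 were called in either direction in bru1 in limma, with 1 at an unadjusted p under 0.05, against 7.24% of all probe sets called, and their differences ran from -0.38 to 0.03. In Col ChiC and the dim AT4G19730 (-0.33 ± 0.10, adjusted p = 0.037) were called lower at 52 h, against 7.84% of all probe sets, a count of 2 of 5 that was 0 without any of the 4 Col arrays just named.

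PDF1.4 was the single gene among 12 measured of 15 listed defensins that was called higher at 52 h in bru1. Of the other 11, of which 3 were dim in every group, 0 were higher and 2 lower at 52 h in bru1, and 0 were higher and 1 lower in Col in limma. Over all probe sets 3.05% were called higher and 4.19% lower in bru1, and 6.93% and 7.84% in Col. The counts of 0 of 11 higher in both genotypes and of 1 of 11 lower in Col are near these shares. At an unadjusted p under 0.05, 1 was higher in each genotype. Their differences ran from -1.43 to 0.29 in bru1 and from -0.82 to 0.62 in Col (medians -0.03 and 0.10, against 0.01 and -0.02 over all probe sets). PDF1.2 differed by 0.08 ± 0.13 at 52 h in bru1 (adjusted p = 0.80) and by -0.11 ± 0.13 in Col (adjusted p = 0.65), and PDF1.2b by -0.13 ± 0.24 and 0.10 ± 0.24 (adjusted p = 0.85 for each). In Col 1 of the 11 was called higher with quantile normalisation, the dim filter or an intensity trend in the prior variance, and without any one of Col control replicate 3, Col 4 h replicates 1 and 2 or bru1 4 h replicates 2 and 3.

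The defensin transcripts called lower at 52 h in bru1 were PDF2.5 (-0.94 ± 0.24, adjusted p = 0.022) and PDF2.1 (-0.71 ± 0.21, adjusted p = 0.047), and PDF2.5 was lower in Col as well (-0.82 ± 0.24, adjusted p = 0.030). In bru1 both were already lower at 4 h, PDF2.5 by -0.84 (adjusted p = 0.0096) and PDF2.1 by -0.74 (adjusted p = 0.0085). At 4 h, 4 of the 11 were called lower in bru1 and 2 in Col, against 19.5% and 18.2% of all probe sets. With single arrays left out these counts ran from 3 to 4 and from 1 to 3. The call of PDF2.1 at 52 h in bru1 was lost in 16 of 26 alternatives, among them the fit of the 2 groups compared alone (adjusted p = 0.11), the fit of the 12 arrays outside the choice of the genes (0.064) and the omission of single arrays of other groups. The count of 2 in bru1 was 1 with array medians subtracted, and 0 without any one of bru1 control replicates 2 and 3 or bru1 52 h replicates 1 and 2, and that of 1 in Col was 0 without Col control replicate 2, Col 52 h replicate 1 or Col 52 h replicate 3. The Col value of PDF2.5 did not pass without Col control replicate 3 either (adjusted p = 0.14). PDF2.1 was higher in untreated bru1 than in untreated Col by 1.71 ± 0.21 (adjusted p = 3.7e-05) and at 52 h by 1.36 ± 0.21 (adjusted p = 2.9e-04), where 5.24% and 5.84% of all probe sets were called higher. LCR69, also known as PDF2.2, fell at 4 h in bru1 (-0.84 ± 0.13, adjusted p = 4.5e-05) and rose from 4 h to 52 h (0.99 ± 0.13, adjusted p = 7.6e-06). LCR67, also known as PDF1.1, read 4.75, 5.08 and 5.60 at 52 h in bru1, against 7.19, 6.74 and 5.81 in bru1 controls (-1.43 ± 0.49, adjusted p = 0.096), and 5.06, 4.86 and 7.40 at 52 h in Col, where replicate 3 stood far above the others.

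**Figure D3:**
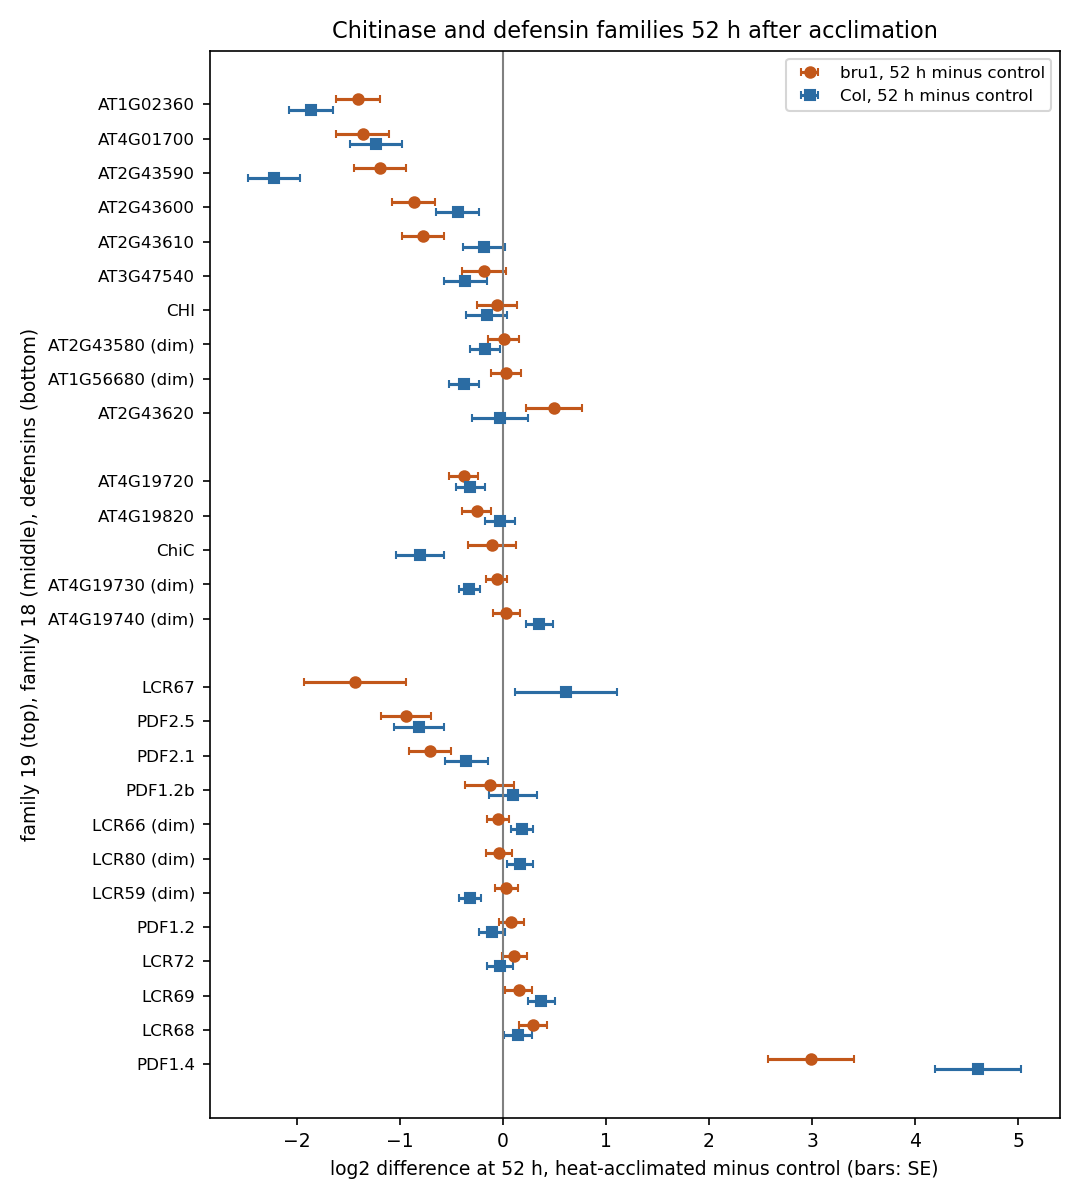
Log2 differences at 52 h against controls (horizontal axis, bars are SE) are plotted for each measured gene of the 2 chitinase families and of the defensins (vertical axis), with bru1 as orange circles above Col as blue squares. PDF1.4 stands alone at the right (2.99 in bru1, 4.61 in Col), and AT1G02360, AT4G01700 and AT2G43590 lie farthest to the left among the chitinases in both genotypes.

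The other defence genes listed gave few values to set beside the members. Of 20 salicylic acid genes 2 were measured, SAG101 and the glutaredoxin gene GRX480, and 0 of the 2 passed the test in any of the 4 comparisons of heat-treated with untreated seedlings in limma, also at an unadjusted p under 0.05. Of all probe sets, 7.24% in bru1 and 14.8% in Col were called at 52 h. At 4 h 19.9% were called higher and 19.5% lower in bru1, and 18.2% each way in Col. So few genes cannot describe salicylic acid defence as a whole. Of 21 jasmonate and ethylene genes EIN3 alone was measured, which encodes a transcription factor of ethylene signalling. It rose at 4 h by 1.03 ± 0.10 in bru1 (adjusted p = 3.4e-07) and 0.91 ± 0.10 in Col (adjusted p = 1.7e-06), and at 52 h it was 0.09 ± 0.10 and 0.14 ± 0.10 from its controls (adjusted p = 0.73 and 0.43). The thionins, another class of small antimicrobial proteins, had all 3 listed genes measured, with THI2.1 dim in every group. AT1G66100 fell at 52 h by a difference of -2.70 ± 0.21 in bru1 (adjusted p = 6.0e-07) and -0.94 ± 0.21 in Col (adjusted p = 0.0045), and THI2.2 fell in bru1 (-1.16 ± 0.24, adjusted p = 0.0053) and rose in Col (0.86 ± 0.24, adjusted p = 0.021). The rise of THI2.2 in Col did not pass without Col control replicate 1 or 3 (adjusted p = 0.052 and 0.079) or Col 52 h replicate 1 or 3 (0.054 and 0.084).

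**Figure D4:**
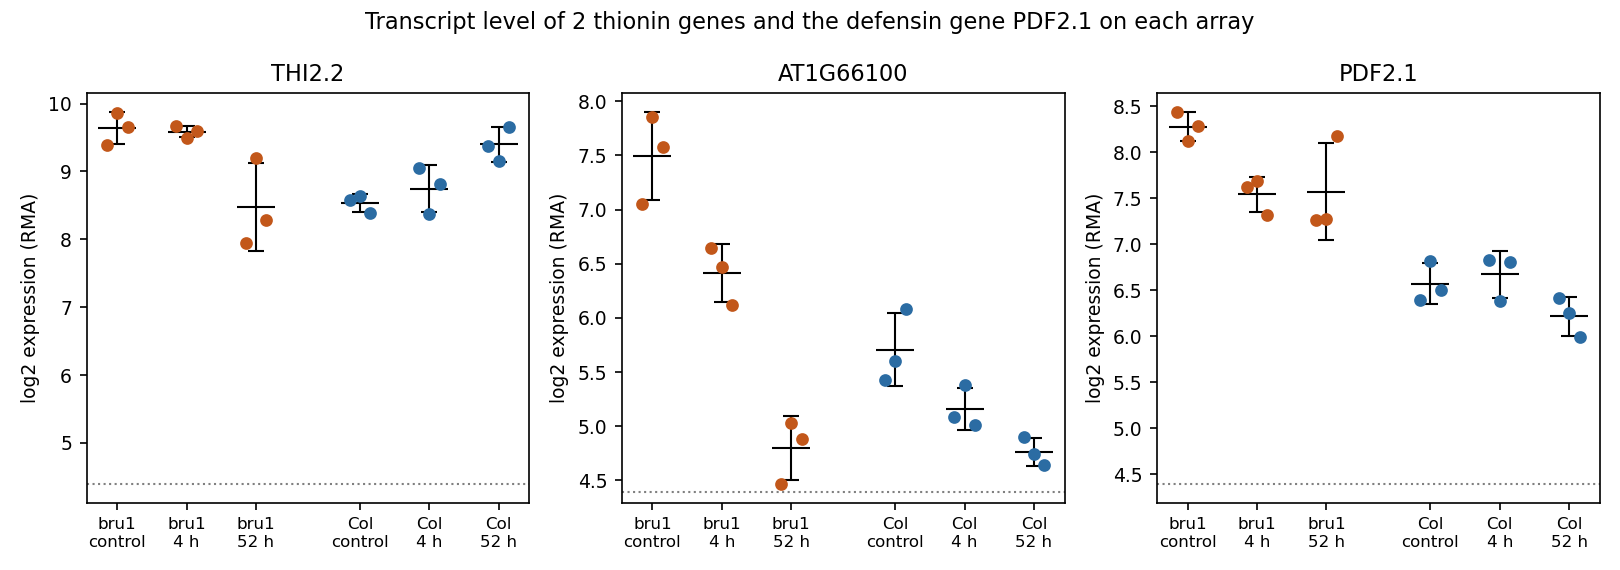
Log2 expression (vertical axis) of THI2.2, AT1G66100 and PDF2.1 on each array in 6 groups (horizontal axis), with bru1 in orange and Col in blue. Points are arrays, dashes with bars are means ± SD (n = 3), and the dotted line is at 4.39. In controls all 3 transcripts are higher in bru1 than in Col, and by 52 h AT1G66100 stands at 4.46 to 5.03 in bru1 and 4.64 to 4.90 in Col.

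The genes whose levels followed each member most closely were sought over all 18 arrays by Pearson's r, as a description. The arrays share their groups, and most of the likeness can come from differences between groups. For PDF1.4 these were AT1G10585 (r = 0.954), AT2G31945 (0.943), AT3G62950 (0.937), AT5G01740 (0.937) and AT3G62930 (0.936), and over the 9 bru1 arrays alone r lay between 0.882 and 0.982. At 52 h against controls they stood between 0.88 (AT3G62930, not past the threshold, adjusted p = 0.056) and 1.71 in bru1 and between 1.48 and 2.93 in Col. For AT1G02360 they were AT2G39430 (0.958), AT3G61410 (0.949), AT1G51860 (0.936), AT1G51830 (0.930) and the peroxidase gene AT5G66390 (PRX72, 0.930), with 0.916 to 0.966 over the bru1 arrays. PRX72 (AT5G66390) fell at 52 h in bru1, with a difference of -1.68 ± 0.23 (adjusted p = 1.9e-04), the largest of these 5. The others ran from -0.92 to -0.38, and AT3G61410 (-0.38) did not pass (adjusted p = 0.16). For AT2G43590 they were AT3G23190 (0.909), AT5G42860 (0.905), AT5G06270 (0.897), AT2G47540 (0.896) and AT2G45750 (0.892), with 0.863 to 0.967 over the bru1 arrays. No gene was among the 5 closest of more than 1 member.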

How the data were processed

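ATH1 arrays of Arabidopsis seedlings were the only data. The authors deposited log2 values that come from RMA according to the submitters' processing notes, whose version is not given in the sources used here. RMA equalises the arrays' distributions, so a change in total RNA would not be seen. Values ran from 2.63 to 14.6, no 2 arrays were identical, and no rescaling was applied. The 18 arrays entered 1 limma 3.58.1 model under R 4.3.3 (lmFit and eBayes, a mean per group, 12 residual degrees of freedom), tested on simulated data with known changes. The number of arrays limits the precision. P-values were adjusted over 22746 probe sets, after 64 control probe sets were left out. The 3 genes were tested in comparisons that use neither Col controls nor Col 52 h arrays, and all other comparisons describe them. The platform's probe table named 1 gene for 13513 probe sets (59.4%) and several for 503, and did not list 8730. Genes with several probe sets were read from the brightest. Chitinase, defensin, hormone, thionin and marker lists were drawn from general knowledge, and members and lists were chosen with earlier results of these data known. Every measured chitinase and defensin is covered by range or by name, and of the other lists up to 4 genes with the largest bru1 difference at 52 h, with the 5 genes closest to each member. Alternatives changed the scaling, dim filter, eBayes, replicate block and arrays used. Counts over gene lists and list genes under these alternatives were added after the data were seen. No sequences were used here.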

Additional observations from a re-analysis of the deposited data

Results flagged for a closer look

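THI2.2 moved in opposite directions in the 2 genotypes at 52 h on every array, and the difference between the changes passed the test. Its change against controls was -1.16 in bru1 and 0.864 in Col, and the change in bru1 minus that in Col was -2.03 ± 0.34 (adjusted p = 0.024, limma), in a comparison that called 0.119% of all probe sets. The thionin gene AT1G66100 fell in both genotypes, by -2.70 in bru1 and -0.943 in Col, and the difference of -1.76 ± 0.29 also passed (adjusted p = 0.024). In untreated seedlings both were higher in bru1, AT1G66100 by 1.79 ± 0.21 and THI2.2 by 1.10 ± 0.24. At 52 h AT1G66100 read 4.46 to 5.03 in bru1 and 4.64 to 4.90 in Col, near the mark of 4.39. Its Col controls read only 5.43 to 6.08. Values so near the dim end can understate a fall, and the part of this in the difference for AT1G66100 was not tested. The adjusted p of THI2.2 lay between 5.7e-04 and 0.083 and that of AT1G66100 between 0.0053 and 0.086 when single arrays were left out, and each passed in 18 of 24 alternatives. THI2.2 did not pass without Col control replicate 1, 2 or 3, Col 52 h replicate 1, or bru1 control replicate 2 or 3. AT1G66100 did not pass without bru1 52 h replicate 1, bru1 control replicate 2 or 3, Col 52 h replicate 1, or Col control replicate 1 or 2. At 4 h every bru1 array lay below the mean of its controls for CHI (-0.288 on average) and every Col array above (0.393), and the difference between the changes, -0.681 ± 0.276, did not pass the test (adjusted p = 0.30, unadjusted p = 0.024).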

How the results depend on the processing

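For the 3 genes, all 7 called differences (52 h against controls in bru1 for all 3, 4 h against controls in bru1 for both chitinase genes, PDF1.4 at 52 h against 4 h, AT1G02360 between genotypes at 4 h) remained past the threshold under every alternative run. PDF1.4 at 52 h in bru1 ranged from 2.59 to 3.54 when single arrays were left out, AT1G02360 from -1.52 to -1.32, and AT2G43590 from -1.43 to -0.89 (adjusted p up to 0.047, the highest). With only the 2 groups compared in the fit, PDF1.4 between genotypes at 4 h (-1.01, adjusted p = 0.0057) and AT1G02360 from 4 h to 52 h in bru1 (0.51, adjusted p = 0.012) passed. With single arrays left out, AT1G02360 from 4 h to 52 h in bru1 ranged from 0.40 to 0.60, passing without Col 4 h replicate 2 or 3 (adjusted p = 0.010 and 0.019), and AT2G43590 from 0.36 to 0.90, passing without bru1 52 h replicate 1 or Col 52 h replicate 3 (0.0072 and 0.048). The probe sets called with single arrays left out numbered 843 to 2017 (1647 with all arrays) at 52 h against controls in bru1, lowest without bru1 52 h replicate 1 and 960 without bru1 control replicate 2, 1715 to 3448 (3048) between genotypes at 4 h, 1549 to 3428 (2615) at 52 h, 1486 to 2902 (2352) in controls, and 8 to 142 (27) for the change at 52 h between genotypes, lowest without Col 52 h replicate 1 and highest without Col 52 h replicate 2. Same-numbered replicates did not deviate together (r from -0.505 to 0.222 over 45 pairs), and with the replicate block the bru1 differences at 52 h kept their values, with adjusted p of 6.0e-04 for PDF1.4, 9.3e-04 for AT1G02360 and 0.0099 for AT2G43590 and 1510 probe sets called. The block changed no call of the 3 genes, and of the named genes' calls at 52 h in bru1 it ended that of PDF2.1 (adjusted p = 0.070). All 3 genes passed the dim filter (mean of at least 5 over all arrays). For PDF1.4 that mean includes its high 52 h values, and its means in bru1 controls (4.51) and at 4 h in bru1 (4.77) lay under 5.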
